A study of Homo sapiens with 192 samples.

Results

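The genes described here carry the interferon signal from the cell surface to the nucleus: the receptor chains IFNAR1, IFNAR2 and IFNLR1, the kinases JAK1 and TYK2, the transcription factor STAT2, and the interferon regulatory factors IRF1, IRF7 and IRF9. These 9 genes were chosen by name, found through their Ensembl identifiers among 58243 identifiers, and all 9 passed the filter that left 19387 genes for testing. Their mRNA was measured in 24 libraries of human colorectal cancer (CRC) cells: the lines HCT116, HT29, LS174T and LS513 under 2D or 3D growth, which makes 8 groups of 3 libraries. The labels name no treatment and no genetic change in any group. HT29 and LS513 are microsatellite stable lines and HCT116 and LS174T microsatellite instable ones, and HCT116 was kept in McCoy medium and the other lines in DMEM, so line and medium cannot be told apart for HCT116. The study grew spheroids in low attachment plates for its growth assay, and the sources used here do not describe the 3D culture used for RNA any further. Each line derives from a single tumour, and nothing in the labels says that the libraries of a group came from separate cultures, so p-values measure the spread between these libraries.

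Type I interferons bind a receptor made of IFNAR1 and IFNAR2, and type III interferons bind IFNLR1 paired with IL10RB, a receptor used mainly by epithelial cells such as those of the gut. Both receptors rely on JAK1 and TYK2, which phosphorylate STAT proteins, STAT2 among them. Phosphorylated STAT2 joins IRF9 in ISGF3, the complex that binds the interferon-stimulated response element (ISRE) of antiviral genes, whereas STAT dimers without IRF9 bind the gamma-activated site (GAS). IRF1 and IRF7 are transcription factors whose genes are themselves induced by interferon, and IRF7 drives the production of further type I interferon.

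Library totals were between 18723942 and 34277421 counts, with a median of 30777613, and 3 counts, taken as the limit of detection, correspond to 0.0875 to 0.160 CPM (counts scaled to a library of 1000000). All values below are CPM after TMM scaling, as mean ± SD of 3 libraries unless stated otherwise. Changes are log2 of 3D over 2D from edgeR's quasi-likelihood fit of the 24 libraries, and a gene was called at an adjusted p under 0.05. All 7 colonic epithelial markers had a group mean above 1 CPM in HT29 and LS513. VIL1 stayed under 1 CPM in every HCT116 library and KRT20 in HCT116 grown in 2D, and KRT20 was at 0.658 to 1.05 CPM in LS174T grown in 2D. The summed epithelial markers were between 2870 and 3560 CPM in HCT116 grown in 2D and between 3490 and 3960 CPM in 3D. The summed leukocyte markers were at most 0.545 CPM in HCT116, LS513 and LS174T, and PTPRC and CD3E were at 0 counts in every HCT116 library. In HT29 the leukocyte sum was between 5.48 and 7.67 CPM in 2D and between 10.5 and 15.4 CPM in 3D, almost all of it CD14, with CD3E at 0 counts throughout. As these are bulk libraries, fewer cells that express a gene and less RNA of that gene per cell cannot be told apart. Among 4 fibroblast markers only COL1A1 in HCT116 was clearly above 1 CPM, and COL1A2 and DCN were at 0 counts in that line. Of 3 endothelial markers PECAM1 in HT29 alone passed 1 CPM, at 0.895 to 1.48 CPM in 2D and 1.73 to 2.29 CPM in 3D. One library stood apart when each was compared with the mean of the other libraries of its group. In LS174T 3D replicate 2 the longest genes lay below that mean (median -0.372 on the log2 scale) and the shortest above it (0.346). The difference of these medians was -0.718, against 0.542 in LS174T 3D replicate 3 and between -0.457 and 0.317 in the other 22 libraries. Replicates 2 and 3 are each part of the mean that the other was compared with.

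Promoter windows from RefSeq (GRCh38.p14, 250 bases before to 50 after each start) were matched to 7 of the 9 genes, with no entry for IFNAR2 and IRF7. An ISRE was searched as GAAA, any 2 bases, GAAA on both strands, and a GAS as TTC, any 3 bases, GAA, which reads the same on both strands. The ISRE letters were in none of the 7 promoters and the GAS letters were in 3, those of IFNLR1, IRF1 and IRF9. Over all 35116 promoters the ISRE letters were found in 3.57% and the GAS letters in 7.66%. The 3 matches are shown with 10 bases on each side. All 3 of these genes were called higher in HCT116 grown in 3D, as described below, IFNLR1 by a fragile call. STAT2 was called higher there too and had neither match, and IRF7, with the largest rise, had no promoter entry. A link between the letters and these changes was not tested. The match is in capitals, 5′ to 3′ on the strand of the gene. It lies 229 bases before the RefSeq start of IFNLR1 (chr1:24187509-24187537, minus strand) and 115 before that of IRF1 (chr5:132490879-132490907, minus strand). For IRF9 the distance to the RefSeq start is 54 bases (chr14:24161192-24161220, plus strand). The gene positions given below come from GENCODE 29 and differ from these starts. By them the matches of IFNLR1 and IRF9 lie inside the gene and that of IRF1 before it.
IFNLR1: tgatttttttTTCCGGGAAttgagtaaaa
IRF1: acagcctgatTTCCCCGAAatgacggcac
IRF9: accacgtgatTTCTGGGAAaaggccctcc
A match is only a match of letters in this window, and no binding was measured.

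HCT116 held the most calls among the 9 genes and LS174T none. In HCT116, 5 genes rose (IFNLR1, STAT2, IRF1, IRF7 and IRF9) and 1 fell (IFNAR2), against 16.8% of all tested genes called higher and 12.3% called lower. In HT29, IRF9 rose and TYK2 fell, where 21.1% of all genes were called higher and 19.6% lower. The part of the CD14 and PECAM1 levels, which were also higher in HT29 grown in 3D, was not tested. In LS513, IRF7 and IRF9 rose and none was called lower, with 13.7% and 9.9% of all genes called. None was called in LS174T by edgeR in either direction, where 13.1% of all genes were called higher and 9.15% lower. There JAK1 alone had an unadjusted p under 0.05 (0.041), and DESeq2 made no call either. Every 3D library lay above or below every 2D library for 6 of the 9 genes in HCT116 (40.4% of all tested genes) and 6 in HT29 (52.9%). The same held for 5 genes in LS513 (42.9%) and 1 in LS174T (38.5%). The shares in HT29 and LS513 are near this background, and so is the number of calls there.

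**Figure D1:**
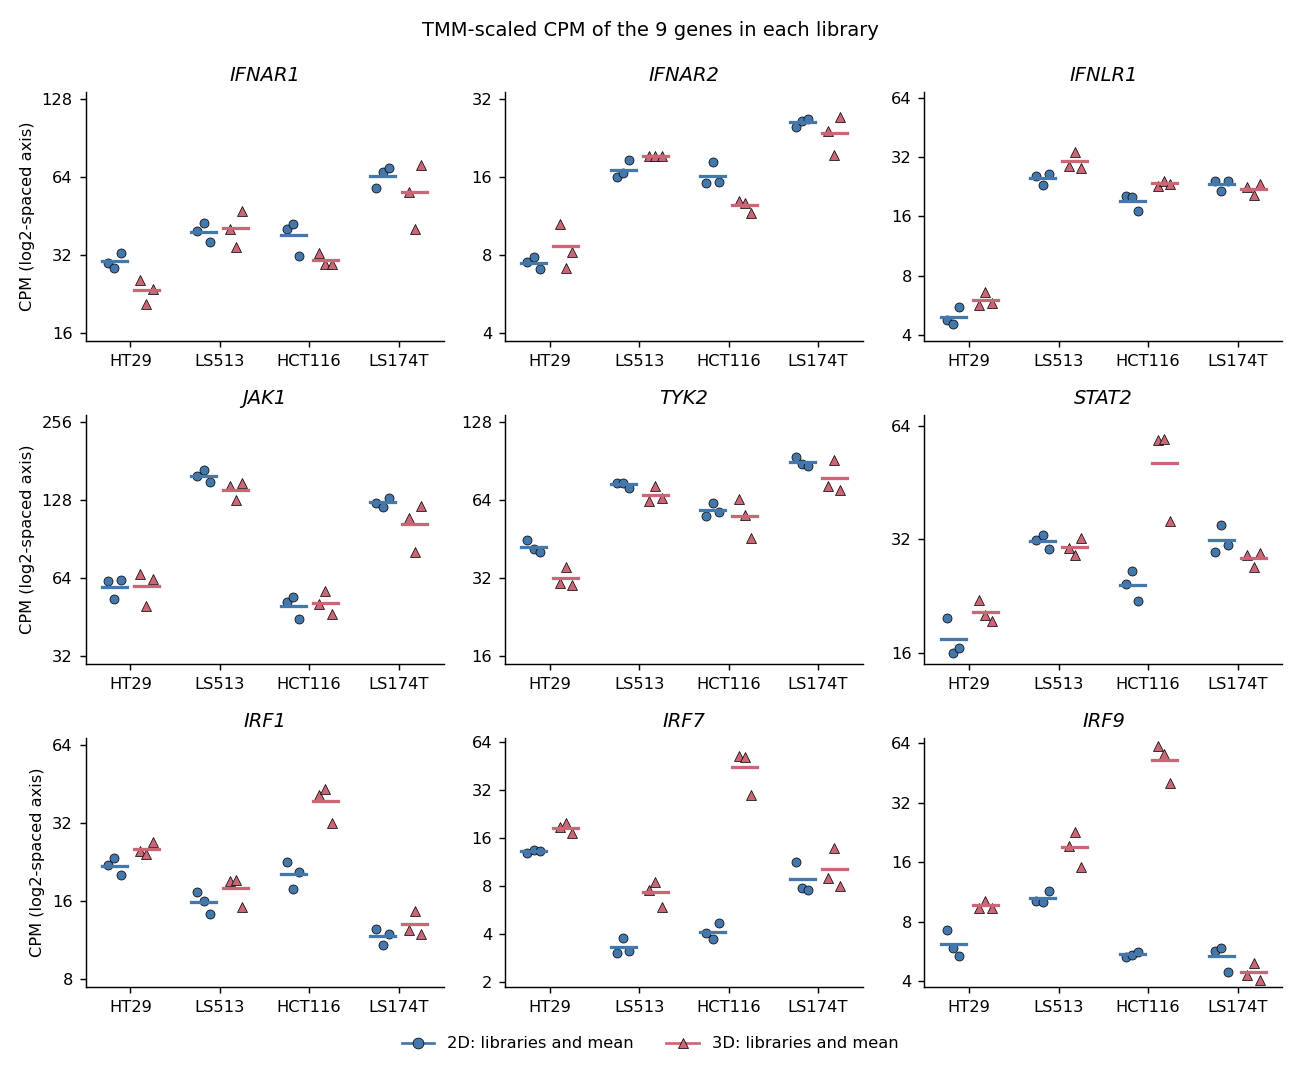
CPM of each of the 9 genes (log2-spaced vertical axis, own range in each panel) in the 24 libraries, with circles for 2D, triangles for 3D and a bar at the mean of 3 libraries. In HCT116 all 3D libraries of STAT2, IRF1, IRF7 and IRF9 lie above all 2D libraries, whereas the receptor chains and kinases differ more between lines than between growth conditions.

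**Figure D2:**
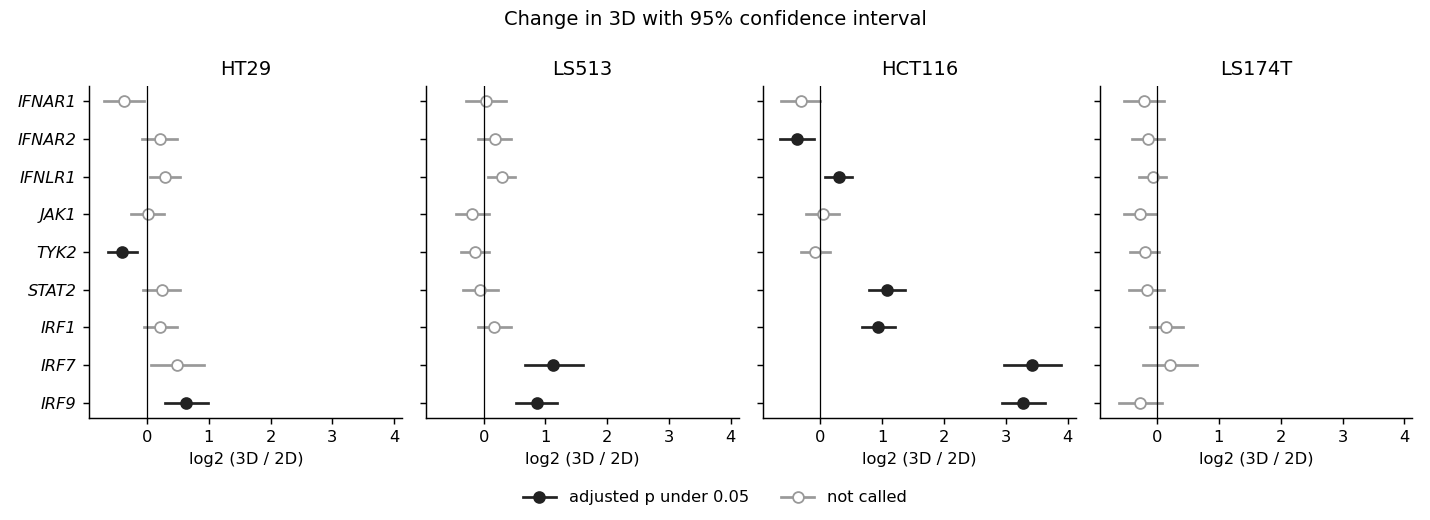
Log2 of 3D over 2D for each gene (rows) and line (panels), with 95% confidence intervals from the edgeR fit and filled points for an adjusted p under 0.05. IRF7 and IRF9 in HCT116 reach 3.43 and 3.28, and no interval of the other changes extends above 1.60.

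IFNAR1 (ENSG00000142166, chr21:33324477-33359862, plus strand) encodes the chain of the type I receptor that is bound by TYK2. Its mean level differed more between lines than between growth conditions. In 2D it was 65.0 ± 6.16 CPM in LS174T, 39.5 ± 3.32 in LS513, 38.3 ± 5.59 in HCT116 and 30.3 ± 2.06 in HT29. LS174T exceeded LS513 (log2 difference 0.72, adjusted p = 3.4e-04), while LS513 and HCT116 (adjusted p = 0.82) and HCT116 and HT29 (adjusted p = 0.06) did not differ beyond their spread. No growth effect was called for IFNAR1 in any line. The fitted changes were -0.37 in HT29 (95% interval -0.70 to -0.04, adjusted p = 0.066), 0.04 in LS513, -0.32 in HCT116 (adjusted p = 0.13) and -0.21 in LS174T. In HT29 the 3D libraries (25.8, 20.8 and 23.7 CPM) all lay under the 2D libraries (29.8, 28.6 and 32.6 CPM). In LS174T the 3D libraries spread over 56.3, 40.4 and 71.4 CPM, the lowest in replicate 2 and the highest in replicate 3. These libraries lay at the opposite ends of the gene length measure above. TYK2, IRF1, IRF7 and IRF9 (6773, 7799, 2628 and 3794 exonic bases) had the opposite order in them. A link to gene length was not tested. Without LS174T 3D replicate 3 the change of IFNAR1 in LS174T was -0.42 (adjusted p = 0.035). Without HCT116 2D replicate 3 its change in HCT116 was -0.46 (adjusted p = 0.037).

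IFNAR2 (ENSG00000159110, chr21:33229901-33265675, plus strand) encodes the chain that binds type I interferon with the higher affinity. In 2D its level was 26.1 ± 1.04 CPM in LS174T, 17.1 ± 1.39 in LS513, 16.3 ± 1.79 in HCT116 and 7.50 ± 0.408 in HT29. LS513 and HCT116 did not differ beyond their spread (adjusted p = 0.65), whereas HT29 was below HCT116 by 1.11 on the log2 scale (adjusted p = 1.3e-07). In HCT116 the gene fell from 15.2, 18.3 and 15.3 CPM in 2D to 13.0, 12.7 and 11.7 CPM in 3D (log2 change -0.38 ± 0.13 SE, adjusted p = 0.032). The groups did not overlap, but the call was lost without HCT116 2D replicate 2 (adjusted p = 0.17), 3D replicate 2 (adjusted p = 0.062) or 3D replicate 3 (adjusted p = 0.079), and without technical replicate d (adjusted p = 0.065). Without 3D replicate 1 it held only by a narrow margin. The changes in HT29 (0.21), LS513 (0.18) and LS174T (-0.14) were not called, although that of HT29 was 0.38 without 3D replicate 3 (adjusted p = 0.047). IFNAR2 shares 44.2% of its exonic bases with AP000295.1, a read-through gene on the same strand, and 39.1% with IL10RB-DT on the opposite strand, so its counts are uncertain. AP000295.1 itself had log2 changes of 0.24, 0.20, 0.20 and 0.10 in HT29, LS513, HCT116 and LS174T, none of them called, and IL10RB-DT had at most 10 counts in any library. Per kilobase of exons, IFNAR1 stood at 1.71 ± 0.25 to 2.98 ± 0.368 times the level of IFNAR2 in the 2D groups and at 1.54 ± 0.235 to 2.01 ± 0.192 times in the 3D groups.

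IFNLR1 (ENSG00000185436, chr1:24154157-24187959, minus strand) encodes the specific chain of the type III receptor. HT29 stood far below the other lines, with 4.80, 4.54 and 5.53 CPM in its 2D libraries, against 19.1 ± 1.82 CPM in HCT116, 23.3 ± 1.63 in LS174T and 24.9 ± 1.56 in LS513. The step from HT29 to HCT116 was 1.96 on the log2 scale (adjusted p = 4.1e-13) and that from HCT116 to LS174T was 0.29 (adjusted p = 0.020), while LS174T and LS513 did not differ beyond their spread (adjusted p = 0.45). In 3D the means were 6.05 ± 0.486 CPM in HT29, 22.1 ± 1.47 in LS174T, 23.5 ± 0.658 in HCT116 and 30.4 ± 3.18 in LS513. The growth effect was of a like size in 3 lines: 0.29 in HT29 (95% interval 0.05 to 0.54, adjusted p = 0.053), 0.29 in LS513 (0.07 to 0.50, adjusted p = 0.051) and 0.30 in HCT116 (0.08 to 0.52, adjusted p = 0.036). In each of these lines every 3D library lay above every 2D library. In LS174T the change was -0.07. The call in HCT116 is fragile, since it was lost whichever of the 6 HCT116 libraries was left out, with adjusted p between 0.05 and 0.21. With DESeq2 the changes in HT29 (adjusted p = 0.033) and LS513 (adjusted p = 0.015) were called as well. The change in HT29 was called without 2D replicate 3 (adjusted p = 0.025), 3D replicate 1 (adjusted p = 0.04) or 3D replicate 4 (adjusted p = 0.045), and that in LS513 without 3D replicate 3 (adjusted p = 0.034). The growth effect on IFNLR1 was not shown to differ between the lines (interaction, adjusted p = 0.17).

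JAK1 (ENSG00000162434, chr1:64833229-64966504, minus strand) encodes the kinase shared by all interferon receptors. It was the most abundant of the 9 genes per kilobase of exons in every 2D group except HCT116, from 9.39 ± 0.871 CPM per kb in HT29 to 25.2 ± 1.28 in LS513, and in HCT116 TYK2 was at 8.68 ± 0.503 against 7.95 ± 0.777 for JAK1. In CPM the 2D order was LS513 at 159 ± 8.11, LS174T at 126 ± 5.22, HT29 at 59.3 ± 5.50 and HCT116 at 50.2 ± 4.91. LS513 exceeded LS174T (log2 difference 0.34, adjusted p = 0.025) and LS174T exceeded HT29 (1.08, adjusted p = 9.9e-08), while HT29 and HCT116 did not differ beyond their spread (adjusted p = 0.10). Growth changed JAK1 by 0.02 in HT29 (95% interval -0.25 to 0.28), 0.04 in HCT116 (-0.23 to 0.30), -0.18 in LS513 (-0.44 to 0.08) and -0.27 in LS174T (-0.54 to -0.01, adjusted p = 0.12). In LS174T the 3D libraries held 109, 80.7 and 122 CPM, again lowest in replicate 2 and highest in replicate 3. Without LS174T 3D replicate 3 the change was -0.41 (adjusted p = 0.024).

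TYK2 (ENSG00000105397, chr19:10350529-10380676, minus strand) encodes the kinase bound to IFNAR1. All steps of its 2D order passed the test: LS174T at 90.0 ± 3.95 CPM, LS513 at 73.8 ± 2.08 (adjusted p = 0.032), HCT116 at 58.8 ± 3.41 (adjusted p = 0.012) and HT29 at 42.2 ± 2.26 (adjusted p = 6.9e-04). In HT29 the gene fell from 44.8, 41.4 and 40.5 CPM in 2D to 30.6, 35.4 and 30.2 CPM in 3D (log2 change -0.40 ± 0.11 SE, adjusted p = 0.0079). The groups did not overlap. The call was lost without HT29 2D replicate 1 (adjusted p = 0.07), 3D replicate 1 (adjusted p = 0.053) or 3D replicate 4 (adjusted p = 0.058). The other changes were -0.14 in LS513, -0.08 in HCT116 and -0.20 in LS174T, and the growth effect was not shown to differ between lines (adjusted p = 0.46).

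STAT2 (ENSG00000170581, chr12:56341597-56360155, minus strand) encodes the STAT that is particular to type I and type III interferon signalling. In HCT116 the 2D libraries held 24.3, 26.4 and 22.0 CPM and the 3D libraries 58.7, 59.0 and 35.8 CPM. Every 3D library was above every 2D library, and 3D replicate 3 was well below the other 3D libraries. The rise was 1.08 ± 0.14 SE on the log2 scale (2.11-fold, adjusted p = 4.9e-06), and between 0.94 and 1.26 with any library of HCT116 left out. No change was called in HT29 (0.24, 95% interval -0.06 to 0.53), LS513 (-0.05, -0.34 to 0.24) or LS174T (-0.16, -0.45 to 0.12). In 2D the order was LS174T at 31.9 ± 2.83 CPM and LS513 at 31.7 ± 1.31, which did not differ beyond their spread (adjusted p = 0.98), then HCT116 at 24.2 ± 2.21 and HT29 at 17.4 ± 2.06. In 3D HCT116 stood first at 51.2 ± 13.3 CPM, and its libraries did not overlap those of LS513 at 30.6 ± 1.62 CPM, the next line.

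IRF9 (ENSG00000213928, chr14:24161053-24166565, plus strand) encodes the DNA-binding partner of the STATs in ISGF3, and it rose in 3 of the 4 lines. In HCT116 it went from 5.32, 5.44 and 5.61 CPM in 2D to 62.4, 56.3 and 40.5 CPM in 3D, a change of 3.28 ± 0.17 SE (9.73-fold, adjusted p = 4.6e-12). The 2D libraries were nearly equal, and 3D replicate 3 was again the lowest of the 3D libraries. In LS513 it rose from 10.2, 10.1 and 11.4 CPM to 19.4, 22.8 and 15.1 CPM (0.86 ± 0.16 SE, adjusted p = 3.6e-04), and in HT29 from 7.24, 5.88 and 5.37 CPM to 9.38, 10.2 and 9.43 CPM (0.64 ± 0.17 SE, adjusted p = 0.0038). The libraries of the groups did not overlap in any of these lines, and no left-out library ended a call, with changes of 3.13 to 3.42 in HCT116, 0.70 to 1.00 in LS513 and 0.59 to 0.83 in HT29. In LS174T the gene was at 5.71, 5.86 and 4.44 CPM in 2D and at 4.29, 4.96 and 4.05 CPM in 3D (-0.27, 95% interval -0.62 to 0.08, adjusted p = 0.27). In 2D LS513 was the highest line (10.5 ± 0.721 CPM), and HT29, HCT116 and LS174T, at 6.16 ± 0.964, 5.46 ± 0.150 and 5.34 ± 0.778 CPM, did not differ beyond their spread. IRF9 shares 48.4% of its exonic bases with AL136295.5, a read-through gene on the same strand that begins inside the neighbouring gene RNF31, so how reads were divided between them is uncertain. AL136295.5 was counted separately and also rose in HCT116, from 51.6 ± 4.20 to 112 ± 17.0 CPM (log2 change 1.12, adjusted p = 2.1e-06), with uncalled changes of 0.14 in HT29, 0.34 in LS513 and -0.14 in LS174T.

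IRF7 (ENSG00000185507, chr11:612553-615999, minus strand) rose in HCT116 from 4.05, 3.71 and 4.68 CPM to 52.9, 51.4 and 30.0 CPM, a change of 3.43 ± 0.22 SE (10.8-fold, adjusted p = 1.8e-10). As for STAT2 and IRF9, 3D replicate 3 was the lowest 3D library and still far above 2D. In LS513 IRF7 rose from 3.06, 3.78 and 3.14 CPM to 7.54, 8.49 and 5.89 CPM (1.13 ± 0.23 SE, adjusted p = 7.3e-04). In HT29 it was at 13.0, 13.5 and 13.3 CPM in 2D and at 18.9, 19.9 and 17.2 CPM in 3D, with no overlap, but the change of 0.49 (95% interval 0.07 to 0.92) had an adjusted p of 0.059. It was called with the size factors of DESeq2 (adjusted p = 0.044), with DESeq2 itself (adjusted p = 0.047), with all genes of at least 1 count (adjusted p = 0.005), when only the 6 HT29 libraries were fitted (adjusted p = 0.0023) and without HT29 3D replicate 4 (adjusted p = 0.048). In LS174T the change was 0.21 (adjusted p = 0.49). The 2D order was HT29 at 13.3 ± 0.263 CPM, LS174T at 8.87 ± 2.08 (adjusted p = 0.018), HCT116 at 4.15 ± 0.495 (adjusted p = 1.1e-04) and LS513 at 3.32 ± 0.394, the last not different from HCT116 beyond the spread (adjusted p = 0.23). HCT116 therefore moved from the lower end of the order in 2D to the top in 3D, at 44.7 ± 12.8 CPM against 18.7 ± 1.39 in HT29.

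IRF1 (ENSG00000125347, chr5:132481609-132490798, minus strand) encodes a transcription factor of the interferon-gamma response. In HCT116 it rose from 22.6, 17.8 and 20.7 CPM to 41.2, 43.4 and 32.1 CPM (0.93 ± 0.13 SE, 1.91-fold, adjusted p = 1.1e-05), with no overlap and changes of 0.83 to 1.03 when any HCT116 library was left out. The changes elsewhere were 0.22 in HT29 (95% interval -0.05 to 0.48), 0.17 in LS513 (-0.09 to 0.44) and 0.15 in LS174T (-0.12 to 0.42), and none was called. In 2D HT29 (21.8 ± 1.62 CPM) and HCT116 did not differ beyond their spread (adjusted p = 0.49), and LS513 (15.9 ± 1.49 CPM) and LS174T (11.7 ± 0.873 CPM) were lower, with each step past the test. IRF1 shares 22.0% of its exonic bases with C5orf56 and AC116366.3 on the opposite strand. The libraries were strand specific, but the strand setting of the counting is not given in the sources used here. C5orf56 rose in HCT116 as well, from 1.65 ± 0.218 to 4.18 ± 0.798 CPM (log2 change 1.34, adjusted p = 1.4e-04), and AC116366.3 fell there by 0.34 on the log2 scale (adjusted p = 0.023).

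The levels of the ISGF3 genes STAT2 and IRF9 relative to each other were compared within each library as CPM per kilobase of exons. IRF9 was below STAT2 in every 2D group, at 0.270 ± 0.040 times STAT2 in LS174T, 0.365 ± 0.0409 in HCT116, 0.538 ± 0.0595 in LS513 and 0.568 ± 0.0384 in HT29. In 3D the ratio of IRF9 to STAT2 was 1.54 to 1.83 in the HCT116 libraries and 0.752 to 1.27 in those of LS513. It was 0.684 to 0.812 in HT29 and 0.222 to 0.296 in LS174T. The 3D libraries lay above all 2D libraries in HCT116, LS513 and HT29 and overlapped them in LS174T. An exact permutation test of 3 libraries against 3 cannot give a two-sided p under 0.1, so these ratios stand as a description, and the IRF9 level carries the uncertainty of its shared exons.

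**Figure D3:**
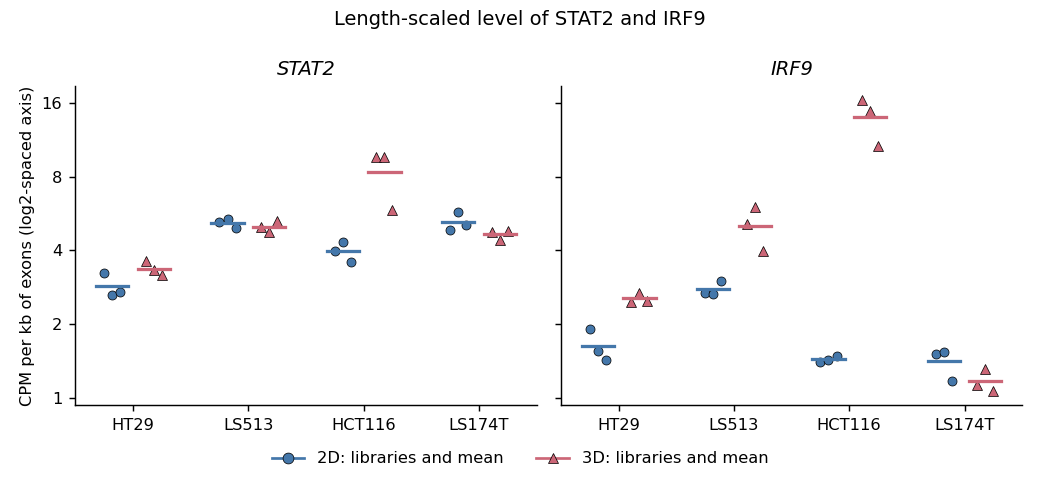
Level of the ISGF3 genes STAT2 and IRF9 in CPM per kb of exons (log2-spaced axis common to the panels) in each library, with circles for 2D, triangles for 3D and bars at group means. IRF9 exceeds STAT2 in all 3 HCT116 3D libraries, at 10.7 to 16.4 against 5.85 to 9.66 CPM per kb, and lies below STAT2 in every 2D library.

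Whether growth acted differently in the 4 lines was tested by the interaction of line and growth. It was called for 4 of the 9 genes, against 17.1% of all tested genes: IRF9 (adjusted p = 3.7e-09), IRF7 (adjusted p = 2.3e-07), STAT2 (adjusted p = 2.0e-04) and IRF1 (adjusted p = 0.0061). It was not called for IFNAR2 (adjusted p = 0.067), IFNLR1, TYK2, JAK1 or IFNAR1, the last 2 at 0.48. For IFNAR2 it was called with DESeq2 (adjusted p = 0.022), without HT29 3D replicate 3 (adjusted p = 0.019), without LS174T 3D replicate 2 (adjusted p = 0.026) and without LS174T 3D replicate 3 (adjusted p = 0.034). The effects in HT29 and HCT116 were also set against those in LS513 and LS174T, a split that the study itself drew from these libraries and which is therefore not independent of them. IRF9 (log2 difference 1.67, adjusted p = 1.0e-06), IRF7 (1.29, adjusted p = 3.8e-04) and STAT2 (0.76, adjusted p = 9.9e-04) were called, 3 of 9 genes against 7.53% of all genes. HCT116 had the largest change of the 4 lines for each of these 3 genes. The fitted rise in HT29 was smaller than that in LS513 for IRF9 (0.64 against 0.86) and IRF7 (0.49 against 1.13). These differences between HT29 and LS513 were not tested. IRF1 was not called when HT29 and HCT116 were set against LS513 and LS174T (0.41, adjusted p = 0.051), although DESeq2 called it (adjusted p = 0.015). It was also called without LS513 2D replicate 3 (adjusted p = 0.045), LS513 3D replicate 2 (adjusted p = 0.044), HCT116 2D replicate 1 (adjusted p = 0.043), HCT116 3D replicate 3 (adjusted p = 0.016) or LS174T 3D replicate 2 (adjusted p = 0.018).

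HT29 and HCT116 differed from each other as well. The growth effect in HCT116 exceeded that in HT29 for 4 of the 9 genes, against 7.76% of all genes called in either direction: IRF7 by 2.94 (95% interval 2.32 to 3.56, adjusted p = 4.7e-07), IRF9 by 2.64 (2.16 to 3.12, adjusted p = 1.2e-07), STAT2 by 0.84 (0.43 to 1.25, adjusted p = 0.0081) and IRF1 by 0.71 (0.34 to 1.09, adjusted p = 0.014). The call for STAT2 was lost without HT29 2D replicate 1 (adjusted p = 0.062), HCT116 3D replicate 1 (adjusted p = 0.053) or HCT116 3D replicate 2 (adjusted p = 0.062). That for IRF1 was lost without HT29 2D replicate 1, 2D replicate 2, 3D replicate 1 or 3D replicate 3 (adjusted p = 0.058, 0.077, 0.058 and 0.062) and without HCT116 2D replicate 2, 3D replicate 1 or 3D replicate 2 (adjusted p = 0.051, 0.065 and 0.089). Differences between LS513 and the other lines in the effect on IRF7 and IRF9 were not tested one by one. Differences between lines in 2D were common among all genes. HT29 differed from LS513 in all 9 genes (60.6% of all genes called), from HCT116 in 5 (68.8%) and from LS174T in 8 (64.6%). LS513 differed from HCT116 in 6 (68.3%) and from LS174T in 7 (57.6%), and HCT116 from LS174T in 8 (68.3%), so the 9 genes are not set apart from other genes in this respect.

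The other genes of the pathway were taken from 6 lists with 76 genes, of which 64 were tested. In HCT116, 47 of them rose and 5 fell, in HT29 35 rose and 6 fell, in LS513 17 rose and 1 fell, and in LS174T 8 rose and 8 fell. The shares called higher were 73.4% in HCT116, 54.7% in HT29 and 26.6% in LS513, above the shares of all genes given above. In LS174T 12.5% were called higher and 12.5% lower, near the background of 13.1% and 9.15%. Among 9 other receptor chains, kinases and STATs, 6 rose and 2 fell in HCT116, 4 rose and none was called lower in HT29, 4 rose and 1 fell in LS513, and 3 rose and 2 fell in LS174T. Their median log2 change was 0.64 in HCT116 (0.47 with a gene whose mean was at most 3 counts in both groups set to no change), 0.00 in HT29, 0.14 in LS513 and -0.21 in LS174T, against all-gene medians of 0.00 to 0.02. IL10RB, the partner of IFNLR1, which like IFNAR2 is spanned by AP000295.1, rose in all 4 lines, by 0.57 in HT29 (adjusted p = 9.1e-05), 0.38 in LS513, 0.73 in HCT116 and 0.29 in LS174T (adjusted p = 0.032). IFNGR2, a chain of the interferon-gamma receptor, also rose in all 4 lines, most in LS513 (0.87, adjusted p = 9.2e-07). STAT6, the STAT of interleukin-4 signalling, rose by 0.77 in HCT116 (adjusted p = 4.9e-06).

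Of the other IRFs, 5 of 6 were tested, and none was called lower in any line. There were 4 calls in HCT116, 2 in HT29, 2 in LS513 and 1 in LS174T, with medians of 0.53, 0.11, 0.03 and 0.16. In HT29 IRF5 rose by 1.04 (adjusted p = 6.4e-06) and IRF2 by 0.34 (adjusted p = 0.011). The 11 negative regulators moved in both directions, with 2 higher and 3 lower in HT29, 1 higher in LS513, 2 higher and 2 lower in HCT116, and 1 higher and 1 lower in LS174T, and their median change lay between -0.13 and 0.00. USP18, which binds IFNAR2 and dampens type I signalling and is itself an interferon-induced gene, rose in HCT116 from 6.94 ± 0.311 to 23.9 ± 5.62 CPM (1.78, adjusted p = 6.5e-08). PTPN6, the phosphatase SHP-1, rose in all 4 lines, by 0.62, 0.26, 0.66 and 0.36 in HT29, LS513, HCT116 and LS174T. PTPN1, a phosphatase of JAK2 and TYK2, fell in HT29 by 0.49 (adjusted p = 3.0e-05).

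The target genes of ISGF3 carry the antiviral programme of type I and type III interferon. All 28 that were tested rose in HCT116, 20 rose and 1 fell in HT29, 7 rose in LS513, and 2 rose and 4 fell in LS174T. Their median log2 change was 2.90 in HCT116, 1.35 in HT29, 0.36 in LS513 and 0.01 in LS174T, where the median of all genes was at most 0.02. With genes at 0 counts in a group placed at the limit of 3 counts per library, and those with a mean of at most 3 counts in both groups set to no change, the medians were 2.69 in HCT116 and 0.07 in LS513. IFI6, an anti-apoptotic protein, rose in HCT116 from 8.49 ± 1.18 to 294 ± 82.3 CPM (5.11, adjusted p = 2.5e-14), IFIT1, which binds viral RNA, from 5.14 ± 1.44 to 132 ± 25.7 CPM (4.68, adjusted p = 3.5e-13) and OAS1, a sensor of double-stranded RNA, from 1.08 ± 0.157 to 44.2 ± 12.5 CPM (5.36, adjusted p = 7.2e-13). OAS1 and ISG15, the ubiquitin-like modifier, rose in all 4 lines, in LS174T by 0.73 (adjusted p = 0.0079) and 0.58 (adjusted p = 0.016). SAMD9 was called in all 4 lines but in both directions, higher by 1.72 in HCT116 and 0.87 in LS513 and lower by 1.10 in HT29 and 0.93 in LS174T on the log2 scale. HCT116 3D replicate 3, the lowest 3D library for 7 of the 9 genes, was also the lowest for all 28 of these targets, which summed to 1470 CPM there against 2220 and 2000 CPM in the other 3D libraries and 296 to 309 CPM in 2D. The ISRE letters described above were in 16 of the 25 target genes with a promoter entry (64.0%).

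**Figure D4:**
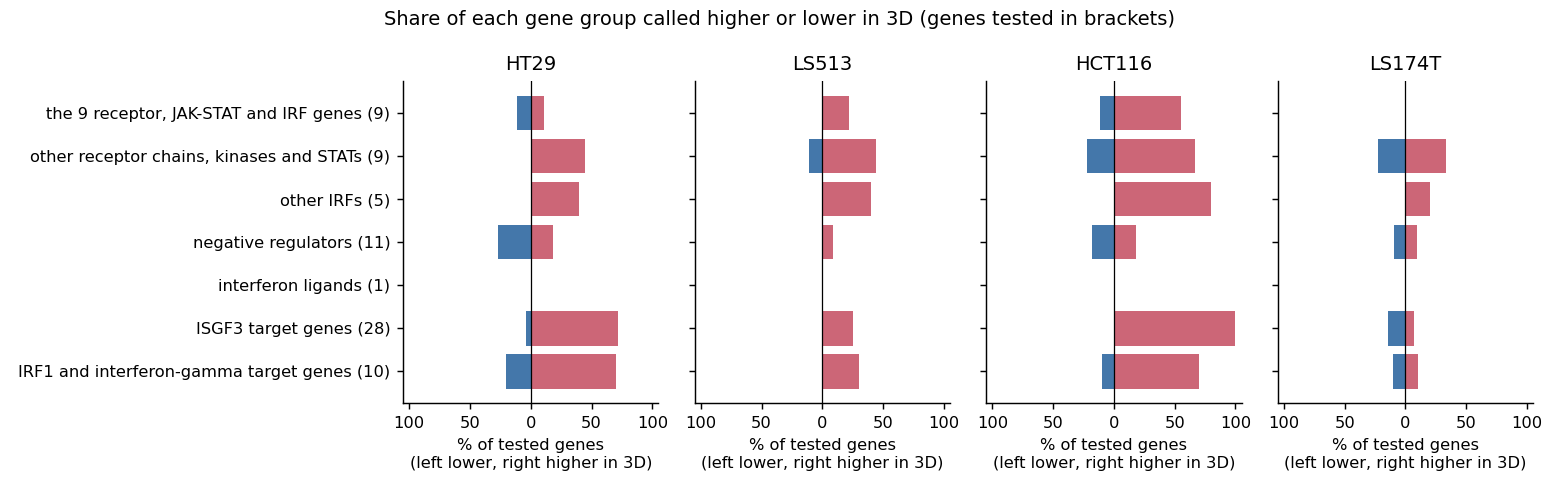
Share of the tested genes of each group (rows, number tested in brackets) called higher in 3D (to the right) or lower (to the left) in each line, in percent. The ISGF3 target genes reach 28 of 28 in HCT116 and 20 of 28 in HT29, against 5 of the 9 receptor, JAK-STAT and IRF genes in HCT116 and 1 of 9 in HT29.

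Among the targets of IRF1 and interferon-gamma, 10 of 14 were tested. In HCT116 7 rose and 1 fell, in HT29 7 rose and 2 fell, in LS513 3 rose, and in LS174T 1 rose and 1 fell. Their median change was 1.35 in HCT116, 1.33 in HT29, 0.10 in LS513 and 0.07 in LS174T. TAP1, a peptide transporter of antigen presentation, rose in HCT116 from 52.3 ± 2.72 to 127 ± 9.79 CPM (1.28, adjusted p = 5.8e-08) and PSMB9, a subunit of the immunoproteasome, from 5.33 ± 1.43 to 20.2 ± 3.06 CPM (1.92, adjusted p = 1.4e-07). GBP2, a guanylate-binding protein, had a mean below the limit of detection in HCT116 grown in 2D (0.0292 ± 0.0288 CPM). It was called higher in 3D, at 2.98 ± 1.85 CPM (adjusted p = 5.3e-08). HLA-E, a non-classical class I molecule, rose in all 4 lines, by 1.25 in HCT116, 0.91 in HT29, 0.65 in LS174T and 0.49 in LS513.

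Of the 8 interferon ligand genes on the list only IFNE, an epithelial type I interferon, passed the filter. It was at 0.875 to 2.84 CPM in the HT29 libraries, the highest in 3D replicate 3, and at no more than 0.568 CPM in the other lines. It was called in no line by edgeR, with unadjusted p above 0.05 in each. IFNB1 and IFNA1 had 1 count each over all 24 libraries, and IFNG and IFNK had none, which allows up to 3 counts in a library. IFNA1 was the only IFNA gene on the list. Reads that matched the genome more than once were removed before counting, a loss that this limit does not cover. IFNL1, a type III interferon, had 47 counts in all. The HT29 libraries held 15, 7 and 9 of them in 3D and 0, 0 and 2 in 2D, and the HCT116 libraries 6, 5 and 2 in 3D and 0, 1 and 0 in 2D. IFNL3 had 22 counts in all, with 8, 7 and 1 in the 3D libraries of HCT116 and 0, 4 and 2 in those of HT29. IFNL2 had 8 counts, with 2, 2 and 1 in the 3D libraries of HCT116 and 0, 1 and 2 in those of HT29. These genes did not pass the filter and were not tested. Every library of LS513 and LS174T was at 0 counts for IFNL1, IFNL2 and IFNL3.

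The genes most alike in pattern over the 8 group means of log2 CPM were sought among 14607 genes, as a description only, since the groups share lines and few points are compared. For STAT2 they were TRIM65 (Pearson r = 0.954), SP100 (0.940) and TRIM21 (0.930), for IRF7 LEMD1 (0.947), IFI27 (0.938) and DAPP1 (0.909), and for IRF9 PSORS1C1 (0.963), HELZ2 (0.931) and PARP9 (0.914). For IRF1 they were TEF, ARRDC3 and KRT16, at 0.974, 0.966 and 0.962. The receptor chains and kinases, whose levels differed mainly between lines, had nearer neighbours: CDH24, ZNF808 and PDSS2 for IFNAR1 (0.987 to 0.992), KIAA1211, UAP1L1 and LZTR1 for IFNAR2 (0.981 to 0.983), and FAM83F, MLXIPL and FAM24B for IFNLR1 (0.992 to 0.997). JAK1 was nearest to MRPS25, ZNF850 and TAOK3 (0.992 to 0.994) and TYK2 to ZMAT3, CABIN1 and RHOBTB3 (0.982 to 0.996). Among the 9 genes themselves, IFNAR2 and TYK2 (0.934), IFNAR1 and TYK2 (0.929) and IFNAR1 and IFNAR2 (0.917) were the most alike.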

How the data were processed

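Poly(A) RNA of each library was sequenced in strand specific single reads. The authors trimmed adapters with Trim Galore 0.4.1, dropped short and low-quality reads, aligned with STAR, removed reads that matched more than once and counted exon overlaps per gene with HTSeq 0.5.3. They deposited raw counts per Ensembl identifier for each technical replicate, without normalization. The study's methods name Ensembl 91 and the submitters' processing notes hg19. No coordinate here rests on either, since positions come from GENCODE 29 (GRCh38) and promoters from RefSeq. How reads shared by overlapping genes were assigned is not given in the sources used here.

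Groups were taken from the sample labels. The 8 technical replicates of each library, which differed by no more than counting error, were summed, and 7 were used for HT29 3D replicate 4, where 1 was not analysed here. The summed counts entered edgeR 4.0.16 in R 4.3.3 (filterByExpr, TMM, robust quasi-likelihood fit of 24 libraries with 1 coefficient per group), with two-sided tests and Benjamini-Hochberg adjustment over 19387 genes. Standard errors were derived from the F statistic. The study used DESeq2, which served as an alternative here (1.42.0). The fit was tested on simulated counts. Other settings tried were no filter beyond 1 count, DESeq2 size factors, a block for replicate number, technical replicate d dropped from every library, a fit of each line alone, and each library left out. The limit of 3 counts covers counting error only, and the libraries carry no molecular identifiers.

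The genes, lists and contrasts were chosen with earlier results of these data known. All 9 genes are named, and of each other list up to 3 called genes with the smallest adjusted p in any line and every gene called in all 4 lines. Some genes that this rule names are not reported here, although the counts of their lists include them. Genes alike in pattern are the 3 with the highest Pearson correlation of log2(CPM + 0.5) among genes with a mean of at least 1 CPM. Same-numbered libraries of the growth conditions did not deviate together (correlations between -0.146 and 0.0938 over 11 pairs), and the labels do not say that a number marks a shared culture, so no pairing was used.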

Additional observations from a re-analysis of the deposited data

Results flagged for a closer look

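The growth effect differed between the 4 lines for 4 of the 9 genes by the interaction test of edgeR: STAT2 (adjusted p = 2.0e-04), IRF1 (adjusted p = 0.0061), IRF7 (adjusted p = 2.3e-07) and IRF9 (adjusted p = 3.7e-09). In each of them the largest of the 4 changes was the rise in HCT116, and no left-out library and no other setting run here ended these 4 calls. Groups of 3 libraries are too small for an outlier test.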

How the results depend on the processing

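The rises of IRF9, IRF7, STAT2 and IRF1 in HCT116, of IRF9 and IRF7 in LS513 and of IRF9 in HT29 kept their direction and their call under every alternative run. Counts of the 9 genes called higher in HT29 went from 1 to 3 with the size factors of DESeq2 and with DESeq2 itself, to 2 with all genes of at least 1 count and to 2 in a fit of that line alone, and were 1 to 3 with a library left out. The count called lower in HT29 was 2 in the fit of that line alone, with IFNAR1 added (adjusted p = 0.013), and 0 to 1 with a library left out, and that in HCT116 was 2 with all genes, with IFNAR1 added (adjusted p = 0.049), 0 without technical replicate d and 0 to 2 with a library left out. In LS174T, 0 to 2 were called lower with a library left out. The genes whose growth effect differed between HCT116 and HT29 numbered 2 to 5 with a library left out. Of the other pathway genes, LS513 had 3 called lower with all genes and 3 in the fit of that line alone (0 to 1 with a library left out), HT29 had 2 to 5 called lower with a library left out, and LS174T had 3 called higher in the fit of that line alone, and 5 to 14 higher and 1 to 9 lower with a library left out. Over all genes the fit of LS174T alone called 1099 higher and 549 lower, and leaving out a library gave 1398 to 3212 higher and 685 to 2826 lower there, 973 to 2375 lower in LS513 and 1530 to 2870 lower in HCT116. These fits hold fewer libraries than the fit of 24 libraries, and the cause of the differences was not tested.

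With a replicate block of line and replicate number, no gene of the 9 was called lower in HT29 (0) or HCT116 (0), and 2 other pathway genes were called lower in LS513. The block ended the calls of IFNLR1 (adjusted p = 0.072) and IFNAR2 (adjusted p = 0.054) in HCT116, TYK2 in HT29 (adjusted p = 0.087) and the difference of IRF1 between HCT116 and HT29 (adjusted p = 0.099), turned JAK1 in HT29 to -0.12 and changed no other call of the 9 genes where it was fitted. Samples share only a number: 6 of 22 libraries with a partner correlated best with their own number.

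Small uncalled changes turned sign when a library was left out: JAK1 in HT29 (-0.03 to 0.18) and HCT116 (-0.07 to 0.09), IFNAR1 in LS513 (-0.08 to 0.15), TYK2 in HCT116 (-0.22 to 0.02) and IRF7 in LS174T (-0.04 to 0.42). IFNLR1 in HCT116 also lost its call with all genes (adjusted p = 0.27) and in the fit of that line alone (adjusted p = 0.096). With 3 libraries a group, standard errors of 0.10 to 0.23 on the log2 scale leave changes as small as those of the receptor chains and kinases near the limit of the test.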
